A study of Mus musculus with 6 samples.

Results

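Tight junction genes were followed in inflamed mouse skin with and without interleukin-33 (IL-33), a cytokine stored in the nuclei of barrier cells. The set holds 9 genes of the 35275 listed, taken by symbol: the claudins Cldn1, Cldn4, Cldn7, Cldn8 and Cldn23, occludin (Ocln), the junctional adhesion molecule F11r, and the scaffold genes Tjp1 and Tjp3. RNA from the epithelial region of back skin was sequenced in 3 IL-33 KO and 3 WT libraries of C57BL/6 mice. For 22 days both genotypes had received dinitrofluorobenzene (DNFB), which provokes contact allergy, on the back skin 3 times a week at 0.25% in acetone and olive oil. No skin without DNFB was analysed here, so every value describes chronic dermatitis. The labels give neither the knockout allele nor the age of the mice, and whether the libraries stem from different animals is not stated there. The p-values therefore measure the spread between these libraries.

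Tight junctions seal the space between neighbouring epithelial cells. In the epidermis they form in the granular layer, below the cornified layer, and limit the loss of water and the entry of allergens. Claudins are small membrane proteins that make up the sealing strands and set which ions pass. Occludin and junctional adhesion molecules join them in the membrane, and the zonula occludens proteins encoded by the Tjp genes tie the strands to actin from the inside. Claudins are best known for docking on these scaffolds through a short motif at the end of the protein, which is bound by PDZ domains.

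The last 30 coding bases of 5 claudins and of F11r are shown because this stretch encodes the end of the protein that faces the Tjp scaffolds. Capitals mark the last codons before the stop codon. The sequences are from GENCODE M21 transcripts on GRCm38, the assembly also named mm10, 5′ to 3′ on the coding strand.
Cldn1: acaccttctagtgggaaagacTATGTGtga
Cldn4: cgctctgtccccgccagcaacTATGTGtaa
Cldn7: aagtccaattcctccaaggaaTACGTGtga
Cldn8: agcatatactccaaaagtcagTATGTGtag
Cldn23: aattcgctgccctgtgactccGACCTGtag
F11r: ttcaaacagacctcgtcgttcCTGGTGtga

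They lie at chr16:26359038-26359067 (minus strand) for Cldn1, chr5:134946113-134946142 (minus) for Cldn4, chr11:69967688-69967717 (plus) for Cldn7, chr16:88562358-88562387 (minus) for Cldn8, chr8:35825442-35825471 (minus) for Cldn23 and chr1:171463065-171463094 (plus) for F11r. Cldn1, Cldn4 and Cldn8 share the same last codons, TAT and GTG, and Cldn7 ends in TAC and GTG. Cldn23 ends differently, in GAC and CTG. Its coding sequence is also the longest of the 5 claudins, at 296 codons against 210 for Cldn4, 211 for Cldn1 and Cldn7, and 225 for Cldn8. The claudin coding sequences were aligned in pairs, and identity was taken over the aligned bases without gaps. It was 60.2% between Cldn7 and Cldn8 (626 bases) and 68.7% between Cldn1 and Cldn7 (629 bases), the least and the most alike of the 10 pairs. No run of 50 bases in the transcripts of Cldn1, Cldn4, Cldn7, Cldn8, Cldn23, Ocln, Tjp1 or Tjp3 occurs in a transcript of another gene. In F11r 0.868% of such runs do. Of the members, Tjp3 alone shares exon bases with another annotated gene, 40 bases with Apba3 on the opposite strand, which is 1.08% of its exon bases.

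The libraries held 20459574 to 24359612 counts each. Il33, the deleted gene, was counted 21, 22 and 11 times in the IL-33 KO libraries, against 3906, 3086 and 2817 times in the WT libraries. Every IL-33 KO library was thus far below every WT library for the gene its label names. Of 15720 genes with enough counts to be tested, 3 passed the quasi-likelihood test of edgeR at an adjusted p under 0.05, which is 0.0191%. All 9 tight junction genes were among the genes tested. The keratinocyte markers were present in every library: the 8 basal markers together took 22400 to 31500 CPM (counts scaled by library size) in IL-33 KO and 26600 to 42000 CPM in WT. The 7 fibroblast markers took 11800 to 13800 CPM in IL-33 KO and 12500 to 22600 CPM in WT, so dermal RNA was present too. In such bulk tissue fewer cells of a type and less RNA per cell cannot be told apart.

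Cldn1, Cldn4, F11r, Tjp1 and Ocln each had a fitted IL-33 KO level of 96% to 111% of WT. The fitted level was 61.2% of WT for Cldn23, 72.9% for Tjp3, 179% for Cldn7 and 206% for Cldn8. Of the 9, 0 passed the edgeR test over all genes and 0 passed in DESeq2, and the smallest adjusted p among them was 0.440 in edgeR, for Cldn23. At an unadjusted p under 0.05 there were 2 members, Cldn23 lower and Cldn8 higher, where 9.02% of all tested genes met that mark (4.87% higher and 4.15% lower). The same pair had no overlap between the genotypes, where 13.9% of all tested genes had none (7.46% higher and 6.47% lower). The median log2 fold change was 0.049 over the members and -0.013 over all tested genes, and the median size without sign was 0.15 and 0.18.

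**Figure D1:**
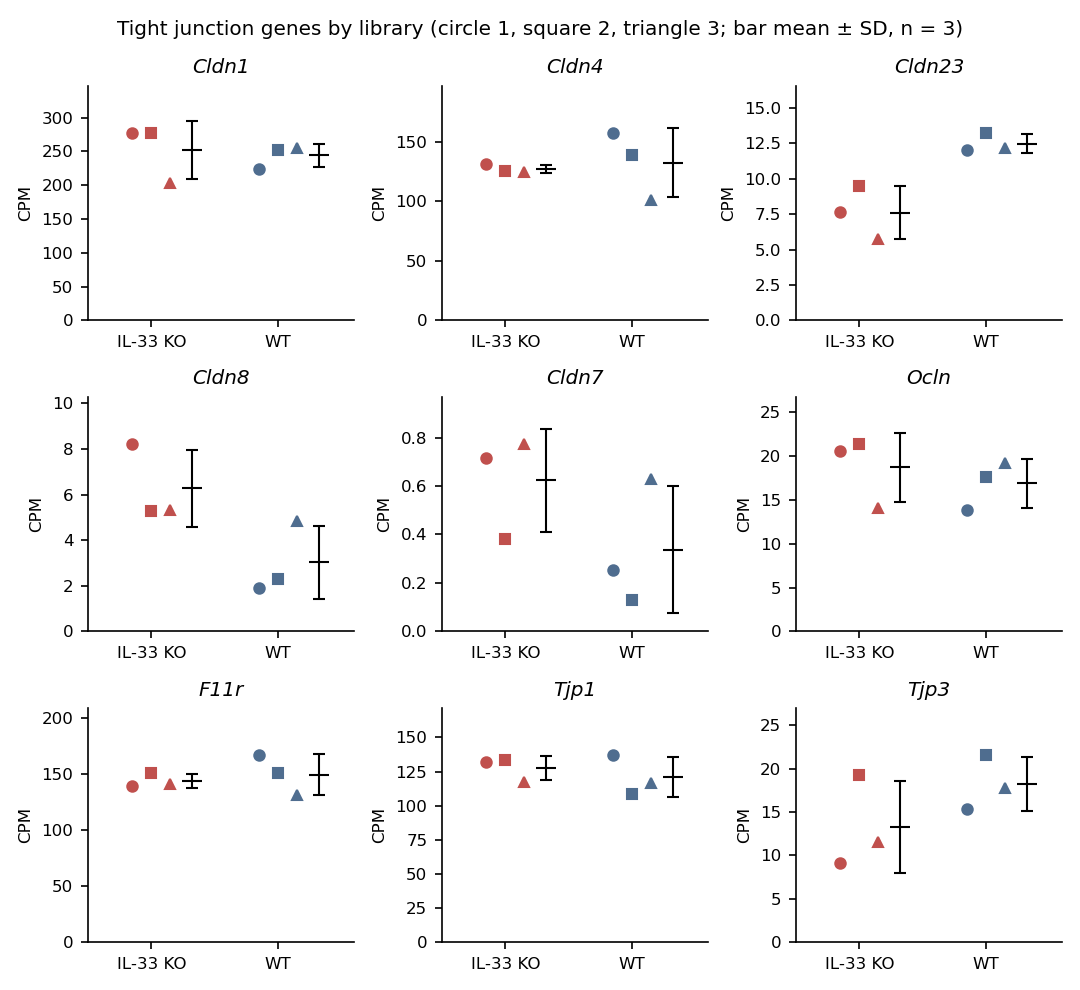
CPM of each tight junction gene (vertical axes, each from 0) in 3 IL-33 KO and 3 WT libraries, with the mean and SD as bars. Cldn23 and Cldn8 are the genes whose genotypes do not overlap: Cldn23 reaches at most 9.45 CPM in IL-33 KO and at least 11.99 CPM in WT, and Cldn8 is at least 5.27 CPM in IL-33 KO and at most 4.85 CPM in WT.

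Levels between genes are compared per gene length, in the deposited FPKM (fragments scaled by gene length and library total). Cldn1 (3247 bases long in the deposited table) led with a mean of 76.7 FPKM over the 6 libraries, followed by Cldn4 at 71.4 and F11r at 58.1. The ranges of Cldn1 and Cldn4 overlapped, and Cldn1 was the higher of the pair in 4 of 6 libraries, so these neighbours did not differ beyond their spread. Cldn4 exceeded F11r in 6 of 6 libraries although their ranges touched, at 58.4 to 81.0 FPKM and 54.4 to 61.8 FPKM. Tjp1 came next at 17.6 FPKM, clear of its neighbours on either side. Cldn23 at 5.38, Tjp3 at 5.17 and Ocln at 4.41 FPKM overlapped one another. Cldn8 had a mean of 2.02 FPKM, below Ocln in 6 of 6 libraries though with overlapping ranges, and Cldn7 had 0.368 FPKM, below all Cldn8 values. Of the summed FPKM of the 5 claudins, Cldn1 and Cldn4 together left little to the others: Cldn8 made up 1.38% to 2.10% in IL-33 KO and 0.497% to 1.44% in WT, and Cldn23 made up 2.26% to 3.14% in IL-33 KO and 3.96% to 4.58% in WT.

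**Figure D2:**
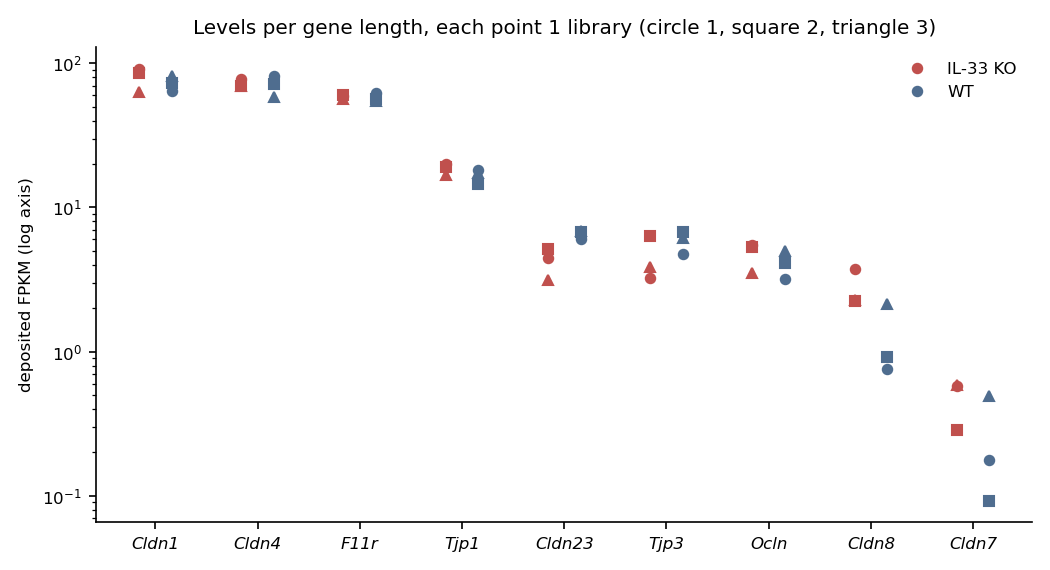
Deposited FPKM on a log axis for the 9 tight junction genes, ordered by their mean, with each library as a point. Cldn1, Cldn4 and F11r form the upper tier with means of 76.7, 71.4 and 58.1 FPKM, and Cldn7 lies lowest with 0.368.

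Cldn1 (ENSMUSG00000022512, mm10 chr16:26356642-26371841, minus strand) encodes the claudin without which newborn mice die of water loss through the skin. It had 277.4, 276.9 and 203.0 CPM in the IL-33 KO libraries, against 224.4, 252.6 and 254.8 CPM in the WT libraries. IL-33 KO held both the highest values and the lowest one, so the WT range lay inside the IL-33 KO range. The log2 fold change was 0.05 ± 0.16 (SE), and edgeR gave it an adjusted p of 0.934. Its 95% interval ran from 80.5% to 133% of the WT level. The sign turned when single libraries were left out, to -0.024 with IL-33 KO 1 dropped, to -0.023 when IL-33 KO 2 was omitted, and to -0.0061 in the absence of WT 1.

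Cldn4 (ENSMUSG00000047501, chr5:134945126-134946934, minus strand), a sealing claudin of the upper epidermis, had 131.1, 125.6 and 124.7 CPM in the IL-33 KO libraries and 157.3, 139.0 and 100.9 CPM in the WT libraries. The IL-33 KO values were close together and WT 1 and WT 3 lay on either side of them. The mean was 127.2 ± 3.47 CPM in IL-33 KO and 132.4 ± 28.8 CPM in WT (SD, n = 3 each), and the log2 fold change was -0.06 ± 0.17 (SE). Its 95% interval ran from 73.4% to 126% of WT, and the sign turned with total-count scaling, to 0.037, and with scaling to keratinocyte genes, to 0.17. Scaling to keratinocyte genes moved the median of all genes to 0.18, so relative to that median Cldn4 stood at -0.0047.

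Cldn23 (ENSMUSG00000055976, chr8:35824709-35826559, minus strand), the claudin with the different end, was counted 181, 224 and 119 times in the IL-33 KO libraries and 238, 303 and 308 times in the WT libraries. Scaled by library, these were 7.63, 9.45 and 5.76 CPM in IL-33 KO, against 11.99, 13.23 and 12.14 CPM in WT. Every IL-33 KO library was below every WT library, and the WT values were the closer together. The log2 fold change was -0.71 ± 0.20 (SE), for which edgeR gave an unadjusted p of 0.00805 and an adjusted p of 0.440. Its 95% interval ran from 44.3% to 84.6% of the WT level. Ranked by p, Cldn23 was gene 84 among those lower in IL-33 KO. The unadjusted p stayed under 0.05 in each of the 6 fits that left out 1 library, at 0.00330 to 0.0254, and was 0.108 with scaling to keratinocyte genes, where the log2 fold change was -0.51, or -0.69 relative to the shifted median of all genes.

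Cldn8 (ENSMUSG00000050520, chr16:88560828-88563183, minus strand), known as a cation-barrier claudin of the kidney collecting duct, was counted 195, 125 and 110 times in the IL-33 KO libraries and 38, 53 and 123 times in the WT libraries. Its CPM were 8.22, 5.27 and 5.32 in IL-33 KO and 1.92, 2.32 and 4.85 in WT. Every IL-33 KO library was above every WT library, but WT 3 came close to IL-33 KO 2 and 3. The log2 fold change was 1.04 ± 0.38 (SE), for which edgeR gave an unadjusted p of 0.0242 and an adjusted p of 0.507. The 95% interval ran from 113% to 375% of the WT level. The unadjusted p in edgeR missed 0.05 when single libraries were left out, at 0.0930 with IL-33 KO 1 dropped, 0.0651 in the absence of WT 1 and 0.0767 when WT 2 was omitted. Without WT 3 the log2 fold change was 1.56 and the adjusted p in edgeR was 0.0727, the smallest for a member under any setting. Calls rose over the whole set of genes in that fit. At an unadjusted p under 0.05 in edgeR 1445 genes were higher and 1305 lower of 15991, against 765 and 653 of 15720 with all libraries.

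Cldn7 (ENSMUSG00000018569, chr11:69964779-69967885, plus strand) was close to the detection limit. It was counted 17, 9 and 16 times in the IL-33 KO libraries and 5, 3 and 16 times in the WT libraries. WT 3 thus equalled IL-33 KO 3 in raw counts, which scaled by library were 0.631 and 0.774 CPM. The log2 fold change of 0.84 ± 0.60 (SE) had a 95% interval from 68.9% to 463% of WT, which at this depth takes in both a lower level and a several-fold higher one. Without WT 3 the value was 1.69, with an unadjusted p of 0.0296 in edgeR, and it was 0.46 (p of 0.459) when WT 2 was omitted.

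Ocln (ENSMUSG00000021638, chr13:100496507-100552718, minus strand), a membrane protein of the strand that also gathers where cells meet, had 20.58, 21.38 and 14.12 CPM in the IL-33 KO libraries and 13.81, 17.64 and 19.16 CPM in the WT libraries. IL-33 KO 3 and WT 1 were the low libraries, one of each genotype. The log2 fold change was 0.15 ± 0.20 (SE), and the 95% interval ran from 80.4% to 153% of WT. F11r (ENSMUSG00000038235, chr1:171437535-171464603, plus strand), an immunoglobulin-type adhesion molecule also known as JAM-A, had 139.0, 150.8 and 141.1 CPM in IL-33 KO, against 167.1, 150.7 and 131.0 CPM in WT. Its IL-33 KO values lay inside the WT range. Its log2 fold change was -0.06 ± 0.13 (SE), with a 95% interval from 78.1% to 118% of WT, and its sign turned with total-count scaling, to 0.029, and with scaling to keratinocyte genes, to 0.15, which is -0.028 relative to the shifted median.

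Tjp1 (ENSMUSG00000030516, chr7:65296165-65371239, minus strand) encodes ZO-1, the scaffold found in nearly all tight junctions. It had 131.8, 133.7 and 117.1 CPM in the IL-33 KO libraries and 137.2, 108.7 and 116.5 CPM in the WT libraries. The ranges overlapped along most of their length, and the log2 fold change was 0.08 ± 0.13 (SE), with an interval from 85.6% to 130% of WT. Tjp3 (ENSMUSG00000034917, chr10:81273207-81291267, minus strand) encodes ZO-3, a scaffold restricted to epithelia. It had 9.11, 19.23 and 11.51 CPM in the IL-33 KO libraries and 15.37, 21.57 and 17.74 CPM in the WT libraries. IL-33 KO 1 and 3 were below all WT libraries, and IL-33 KO 2 lay among them. The log2 fold change was -0.46 ± 0.28 (SE; adjusted p of 0.641 in edgeR), with an interval from 46.9% to 113% of WT. Without IL-33 KO 2 it was -0.82, with an unadjusted p of 0.00662 and an adjusted p of 0.396, and it was -0.25 (unadjusted p of 0.379) when IL-33 KO 1 was omitted.

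**Figure D3:**
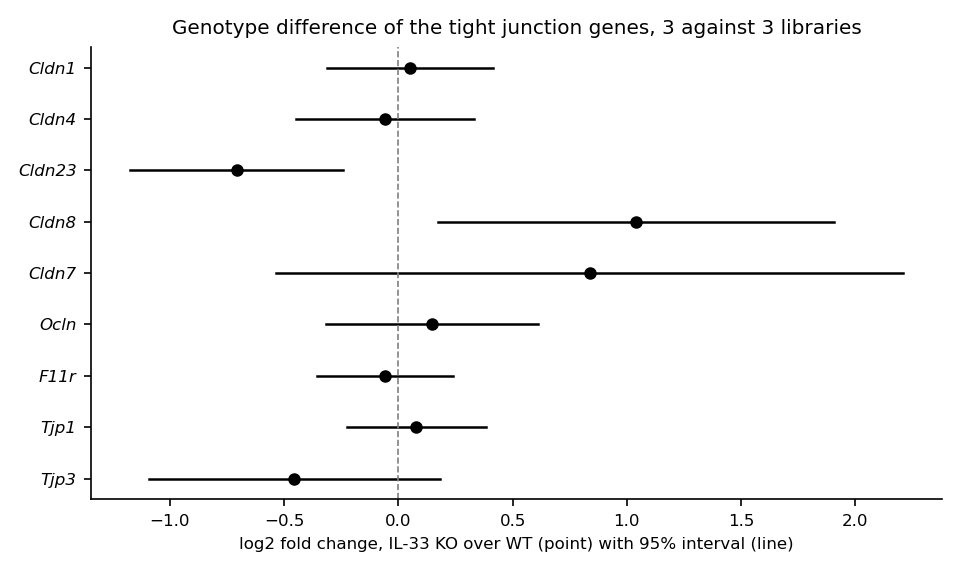
Log2 fold change of IL-33 KO over WT for each tight junction gene from edgeR (points) with its 95% interval (lines). The intervals of Cldn23, at -0.71, and Cldn8, at 1.04, lie to one side of 0 before any adjustment for the number of genes tested, and the other 7 include 0.

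Markers of several cell types differed between the libraries. The 18 hair follicle markers summed to 23700, 12200 and 11500 CPM in the IL-33 KO libraries and to 4080, 2880 and 6730 CPM in the WT libraries, and all 18 were detected in every library. In edgeR 0 of them passed, with a smallest adjusted p of 0.125. At an unadjusted p under 0.05 in edgeR 18 of them were higher in IL-33 KO, where 4.87% of all tested genes were. The list was chosen with earlier results of these data known, so its counts are a description and not an independent result. In DESeq2 11 of the 18 passed as higher, where 186 of the 23873 genes with a p-value did. Not all of those genes had an adjusted p, so that share is a lower bound. The 6 melanocyte markers, also carried by hair follicles, summed to 275, 128 and 227 CPM in IL-33 KO, against 105, 71.4 and 138 CPM in WT. Cldn8 was highest in the IL-33 KO library and in the WT library with the most of these markers. A fit with the mean level of the hair follicle markers as a covariate was added once the values were known. In it the log2 fold change of Cldn8 was -0.21 ± 0.53 (SE; unadjusted p of 0.697 in edgeR). That of Cldn23 was -0.54 ± 0.41 (SE; unadjusted p of 0.232 in edgeR). The summed markers do not overlap between the genotypes (16 of the 18 genes singly), so this fit separates them poorly from genotype. The 13 spinous and granular keratinocyte markers summed to 10600, 25100 and 22500 CPM in IL-33 KO, against 29100, 36500 and 18900 CPM in WT. All 13 had a negative log2 fold change. The 10 activated keratinocyte markers, all 10 with a negative log2 fold change, summed to 20500, 32300 and 33100 CPM in IL-33 KO, against 55900, 43200 and 24400 CPM in WT. Both keratinocyte lists were lowest in IL-33 KO 1 within IL-33 KO and in WT 3 within WT. With the spinous and granular mean as a covariate, likewise added later, Cldn23 was at -0.62 ± 0.25 (SE). In edgeR its unadjusted p was 0.0405 and its adjusted p 0.998. Cldn8 was at 0.56 ± 0.29 (SE; unadjusted p of 0.0925 in edgeR) and Tjp3 at -0.17 ± 0.26 (SE; unadjusted p of 0.52 in edgeR). IL-33 KO 1, the library with the least of the spinous and granular markers, also had the least Tjp3, and WT 2 had the most of both. The order did not hold in WT 3, which had the next fewest of these markers. Its Tjp3 was 17.74 CPM, above WT 1 at 15.37 and IL-33 KO 3 at 11.51 CPM. The 8 skeletal muscle markers summed to 130, 13.5 and 274 CPM in IL-33 KO, against 11.4, 12.8 and 10.5 CPM in WT. The 6 adipocyte markers summed to 882, 677 and 656 CPM in IL-33 KO, against 154, 644 and 467 CPM in WT. They were lowest in WT 1, the library with the least Cldn8. WT 2 was near IL-33 KO 2 and 3 in these markers but had 2.32 CPM of Cldn8, against 5.27 and 5.32 CPM there. Beyond these 2 covariate fits, the part of the markers in the differences of Cldn8, Cldn23 and Tjp3 was not tested.

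**Figure D4:**
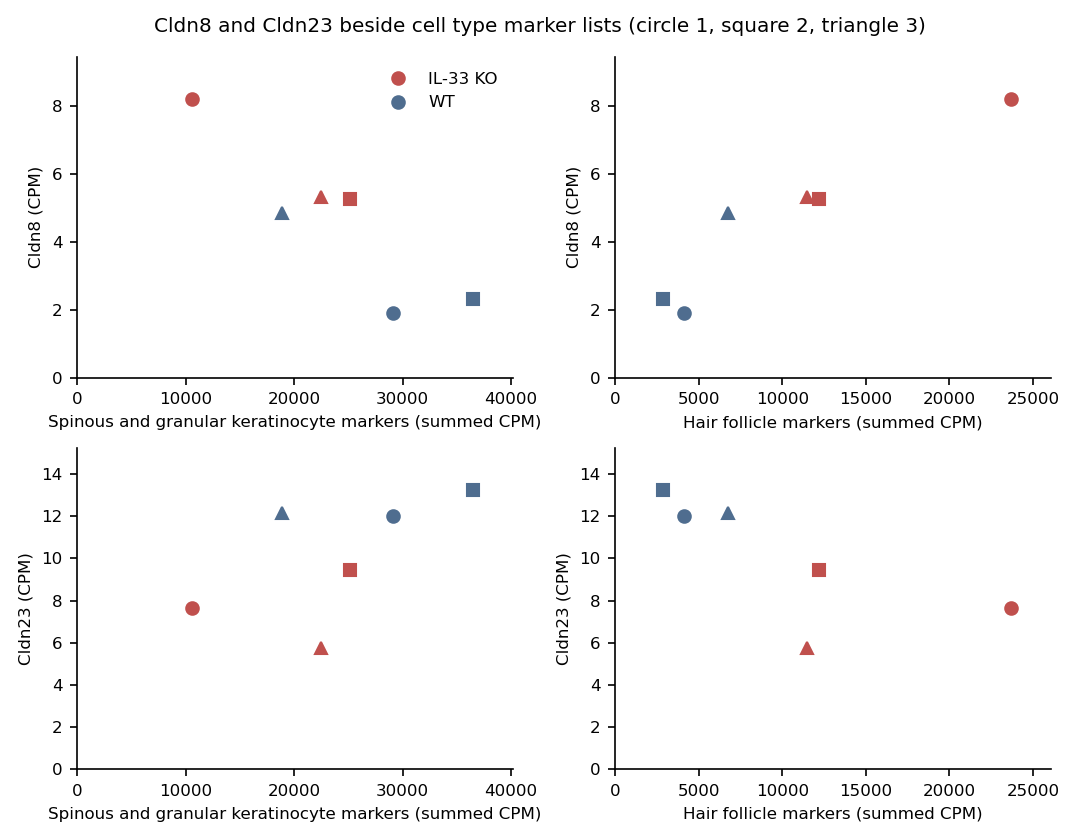
Cldn8 (upper panels) and Cldn23 (lower panels) in CPM against the summed CPM of spinous and granular keratinocyte markers (left) and of hair follicle markers (right), 1 point per library. Cldn8 runs from 8.22 CPM in the IL-33 KO library with 23700 CPM of hair follicle markers to 1.92 and 2.32 CPM in the WT libraries with 4080 and 2880. The Cldn23 points lie at 5.76 to 9.45 CPM in IL-33 KO and at 11.99 to 13.23 CPM in WT.

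Likeness to other genes was measured over the 6 libraries as the root mean square difference of centred log2 CPM, for the members with the largest fold changes. The gene nearest to Cldn8 was Pappa2, a protease of insulin-like growth factor binding proteins, at 0.103, where the median gene was at 0.744. Pappa2 had 3.71, 2.45 and 2.27 CPM in IL-33 KO, against 1.01, 1.00 and 2.25 CPM in WT. The nearest to Cldn23 was Tnni3, cardiac troponin I, also at 0.103 (median gene 0.474), and the nearest to Cldn7 was Gm26840 at 0.155. Both were low, Tnni3 at 1.26 to 3.32 CPM and Gm26840 at 0.131 to 0.843 CPM. The nearest of all tested genes is bound to lie far below the median gene, so these distances only describe the 6 libraries. The nearest member was Cldn7 for Cldn8 (0.400, with 389 other genes nearer), and Tjp3 for Cldn23 (0.291, with 348 nearer).

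Among the other claudins, membrane proteins, scaffolds, transcription factors and adherens junction genes, 0 passed the threshold in edgeR and 0 in DESeq2. Of 21 other claudin symbols 19 were matched and 9 had enough counts to be tested. At an unadjusted p under 0.05 in edgeR, 2 of these were higher in IL-33 KO and 0 lower, where 4.87% and 4.15% of all tested genes were. Without overlap between the genotypes 3 were higher and 0 lower, against 7.46% and 6.47% of all tested genes, namely Cldn3, Cldn12 and Cldn14. Cldn12 had 32.4, 28.7 and 31.1 CPM in IL-33 KO, against 27.9, 21.6 and 27.5 CPM in WT. Cldn14 had 3.54, 1.05 and 1.45 CPM in IL-33 KO, against 0.705, 0.262 and 0.591 CPM in WT. Its log2 fold change was 1.96 ± 0.57 (SE). Cldn3, a barrier claudin whose gene lies 39279 bases from Cldn4, had 7.63, 3.46 and 4.26 CPM in IL-33 KO, against 1.66, 2.45 and 2.60 CPM in WT. Its log2 fold change was 1.19 ± 0.35 (SE). Both had an adjusted p of 0.440 in edgeR and were highest in IL-33 KO 1, the library with the most hair follicle markers. Within WT these markers were highest in WT 3, where Cldn3 was highest too, but Cldn14 was highest in WT 1. The part of the markers in the differences of Cldn3 and Cldn14 was not tested. Cldn4, near Cldn3 on the chromosome, had a log2 fold change of -0.06. The median log2 fold change of the 9 tested was 0.26.

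Of 11 other membrane proteins of the junction, 0 passed in edgeR, and at an unadjusted p under 0.05 there were 0 higher and 1 lower (4.87% and 4.15% of all tested genes). Jam3, a relative of F11r, had 5.21 ± 0.291 CPM in IL-33 KO and 7.51 ± 1.51 CPM in WT (SD, n = 3 each), and Lsr, the lipolysis-stimulated receptor of tricellular junctions, had 27.1 ± 3.20 CPM in IL-33 KO and 21.9 ± 1.87 CPM in WT. Of 23 scaffold and polarity genes, 0 passed in edgeR, and 2 were higher (Amotl1 and Magi3) and 2 lower (Pard6a and Tjap1) at an unadjusted p under 0.05, where 4.87% and 4.15% of all tested genes were. Without overlap, 2 were higher (Magi3 and Sympk) and 3 lower (Magi2, Pard6a and Tjap1), against 7.46% and 6.47% of all tested genes. Of the 23, 14 had a positive and 9 a negative log2 fold change, and the median was 0.058. Magi3, a scaffold with several PDZ domains, had 23.6, 22.4 and 20.1 CPM in IL-33 KO, against 17.6, 12.8 and 14.2 CPM in WT (adjusted p of 0.434 in edgeR). Pard6a, a polarity protein, had 3.50, 3.12 and 3.34 CPM in IL-33 KO, against 4.79, 5.68 and 5.01 CPM in WT (adjusted p of 0.461 in edgeR).

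Of 14 transcription factors tied to epithelial junction genes and 11 adherens junction genes, 0 passed in edgeR, where 0.0191% of all tested genes did. An unadjusted p under 0.05 in edgeR was reached by 0 of them, where 9.02% of all tested genes met that mark. Elf3, an epithelial ETS factor, had 12.3 ± 1.43 CPM in IL-33 KO and 17.3 ± 5.29 CPM in WT (SD, n = 3 each). Grhl3, a grainyhead factor of the epidermal barrier, had 54.1, 78.0 and 81.9 CPM in IL-33 KO, against 152, 101 and 69.8 CPM in WT, so WT 3 lay among the IL-33 KO libraries. In the adherens junction, Epcam had 131 ± 14.5 CPM in IL-33 KO and 156 ± 31.7 CPM in WT, and Jup, plakoglobin, had 1240 ± 182 CPM in IL-33 KO and 1530 ± 376 CPM in WT (SD, n = 3 each).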

How the data were processed

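The authors deposited read counts per gene and FPKM values for 35275 genes in 6 libraries. The submitters' processing notes name STAR, RSEM and mm10 without versions. The deposited FPKM are the counts divided by gene length and column total (largest relative difference 2.78e-07). The strand setting of the counting is not stated there.

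Groups and replicate numbers are from the sample titles. The test was run in edgeR 4.0.16 under R 4.3.3: filterByExpr at its defaults (15720 genes kept), TMM scaling, the quasi-likelihood F test (two-sided, no block) and Benjamini-Hochberg adjustment over all tested genes at 0.05. The F statistic gave the standard errors and 95% intervals of the log2 fold changes. The biological coefficient of variation was 21.3%. CPM use the TMM-scaled library sizes. The test was checked on simulated data.

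The members and gene lists were chosen with earlier results of these data known. Named genes are all members, Il33, in each junction list the genes that pass or else the 2 with the smallest p, and the likeness genes of the 3 members with the largest fold changes. Other named genes were chosen after their values were seen. Cldnd1, listed as Cldn25, was matched by identifier, and Magi2, on 3 rows, likewise. Alternatives were other scalings, filters and tests (DESeq2 1.42.0, limma 3.58.1 on counts and on log2 FPKM), a replicate block, each library left out, and 2 covariates. Coding ends and shared runs of 50 bases are from GENCODE M21, whose assembly is that of the files. Pairs of claudin coding sequences were aligned globally with Biopython 1.88. Figures were drawn with matplotlib 3.10.9.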

Additional observations from a re-analysis of the deposited data

How the results depend on the processing

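The count of members past the threshold was 0 under every setting run, including DESeq2, an adjusted p under 0.1 and each library left out. In edgeR 2 members had an unadjusted p under 0.05, where 9.02% of all tested genes did. In DESeq2 2 members did, where 912 genes were higher and 670 lower of 23873. The smallest adjusted p of a member in DESeq2 was 0.133, for Cldn23. The count over all genes was 3 and moved to 5 with upper quartile scaling, with total counts, with a minimum CPM of 1 and with hair follicle, muscle and adipocyte genes removed. It moved to 44 with scaling to keratinocyte genes, 33 with no filter, 233 in DESeq2, 11 in limma-voom, 15 and 11 on log2(FPKM + 1) and log2(FPKM + 0.1), 6 on unfiltered log2(FPKM + 1), 7 at an adjusted p under 0.1 and 1 with the hair follicle covariate. Leaving out 1 library gave 2 to 24 genes, 24 without WT 3 and 10 without IL-33 KO 2.

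Of 195 log2 fold changes of members under other settings, 170 kept their direction and 25 turned, all of them short of the threshold, and the cause was not tested. Cldn4 turned to 0.037 with total counts, 0.17 with keratinocyte scaling, 0.047 and 0.048 on the log2 FPKM scales, 0.26 with the hair follicle covariate and 0.098 with the spinous and granular covariate. F11r turned to 0.029 with total counts, 0.15 with keratinocyte scaling, 0.029 and 0.030 on the log2 FPKM scales, 0.15 with the hair follicle covariate and 0.060 with the spinous and granular covariate. With the hair follicle covariate Cldn1 turned to -0.038, Cldn7 to -1.08, Cldn8 to -0.21, Ocln to -0.0080, Tjp1 to -0.050 and Tjp3 to 0.27. With 1 library left out, Cldn1 ranged from -0.024 to 0.18, Cldn4 from -0.22 to 0.085, F11r from -0.15 to 0.030, Ocln from 0.025 to 0.31 and Tjp1 from 0.0093 to 0.18. Cldn23 kept its direction under all 22 settings (-0.89 to -0.51).

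Libraries of the same number did not deviate together (correlations of -0.264, -0.117 and -0.378), and those of different numbers had correlations of -0.0367 to 0.275. These few values, from deviations around means of 3 libraries, cannot decide whether the numbers pair the libraries. The labels do not say so either. With the replicate number as a block 2 genes passed, and 0 members. Depth limits Cldn7, which had 3 to 17 counts per library and was left out by the filters on CPM and FPKM.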

Other observations

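Cxadr, the coxsackie and adenovirus receptor that sits at epithelial tight junctions, was the nearest of all tested genes to Cldn1, with a root mean square difference of 0.0311 in centred log2 CPM over the 6 libraries, where the median gene was at 0.279. Cxadr had 152, 160 and 116 CPM in the IL-33 KO libraries, against 127, 139 and 140 CPM in the WT libraries. Both genes were lowest in IL-33 KO 3. This pair was singled out after its values were seen, and it is a description of 6 libraries only. The nearest gene was about as near for F11r (Ing2, at 0.0273) and for Tjp1 (Cnot1, at 0.0317). Among the members, Ocln was nearest to Cldn1, at 0.107, with 183 other genes nearer, and F11r was nearest to Cldn4, at 0.106.

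Claudins that were not tested for want of counts included Cldn2, at 18, 9 and 3 counts in the IL-33 KO libraries and 1, 19 and 3 in the WT libraries. High and low counts of Cldn2 stood in both genotypes.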
